A study of Homo sapiens with 2 samples.

Results

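Interferon-stimulated genes (ISGs) were followed in A375 cells, an established human melanoma line, after siRNA against THOC2, a subunit of the THO complex that couples transcription to mRNA export. The 50 ISGs were chosen by gene symbol from a list of genes known to be induced by interferon. The rule uses no measured value, although the list was drawn up with earlier results of these data known. They were represented by 67 of the 58199 probes on the array, and by 50 of its 34757 gene symbols. A probe was compared where the scanner software marked it well above background on at least 1 array. By that mark 44 ISGs were measured, 42 of them on both arrays, and 6 (IFI44L, XAF1, EPSTI1, SAMD9, TRIM22 and GBP1) had no probe well above background on either array, with NC signals from 2.95 (EPSTI1) to 11.9 (TRIM22).

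Both groups were A375 cells transfected with siRNA by a cationic lipid and harvested after 48 h. The labels give DMEM with glutamine and foetal bovine serum as the medium, where the study's methods name RPMI medium with serum. The first group (NC) received a control siRNA and the second 1 THOC2 siRNA, with nothing in the sources used here to say which of the study's oligos it was. Each group was 1 culture on 1 array, and no untransfected culture was analysed here. There was therefore no replicate, no test and no p-value, and the measured spread is only that of repeated spots within an array, which leaves out any difference between cultures. The source field of each label named the opposite condition to its title and description. Titles and descriptions were followed here, and with that reading THOC2 was lower on the array labelled THOC2 siRNA: its signals were 136 (NC) and 40.9 (THOC2 siRNA) at one probe and 67.3 and 35.1 at the other, a mean log2 fold change of -1.03 ± 0.10 (technical SD). If the source field were right instead, every direction below would turn.

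Interferons are cytokines that cells secrete when sensors such as RIG-I and MDA5 meet viral or other foreign RNA. Type I and type III interferons signal through JAK kinases to the ISGF3 complex, which holds STAT2 and IRF9 and binds the interferon-stimulated response element (ISRE), whereas interferon gamma acts at the gamma-activated site (GAS). The genes switched on in this way include the sensors and transcription factors themselves, so the pathway amplifies its own response. Transfected double-stranded RNA is itself a known trigger of the pathway, and both groups received it.

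The promoter sequences of the ISGs were examined first, because the pathway reaches the genes through these elements. RefSeq promoter windows (GRCh38.p14, 250 bases before to 50 bases after a gene start) were matched for 40 of the 50 ISGs, and 10 of these genes had more than 1 window. The letters GAAANNGAAA, the core of the ISRE, were searched on both strands and occurred in 28 of the 40 genes (70.0%), against 4.16% of 15843 protein-coding genes and 3.17% of their 22199 windows. TTCNNNGAA, the core of the GAS, reads the same on both strands and occurred in 14 of the 40 genes (35.0%), against 8.98% of protein-coding genes and 6.79% of their windows. The genes were chosen as interferon-induced, so these shares are a description. A match is a run of letters and was not tested for binding, and some ISRE and GAS matches overlapped, as in BST2 and IFI27. ISRE matches also overlapped each other in BST2, ISG15, HERC5 and IFIH1, and were counted as separate matches.

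The windows below are shown for genes at both ends of the range of change and for genes near 0, all on the sense of the gene and ending at or before its start, with the ISRE letters in capitals. RTP4, IFIH1, PARP14 and IFIT3 were among the ISGs with the lowest ratios, OAS3 was among the highest, and ISG15 and ISG20 lay near 0. The coordinates and strands were chr3:187368333-187368384 (plus) for RTP4, chr2:162318686-162318853 (minus) for IFIH1, chr3:122680800-122680829 (plus) for PARP14, chr10:89327831-89327894 (plus) for IFIT3, chr12:112938321-112938473 (plus) for OAS3, chr1:1013374-1013409 (plus) for ISG15 and chr15:88638937-88638966 (plus) for ISG20.
RTP4: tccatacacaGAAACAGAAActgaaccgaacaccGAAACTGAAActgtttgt
IFIH1: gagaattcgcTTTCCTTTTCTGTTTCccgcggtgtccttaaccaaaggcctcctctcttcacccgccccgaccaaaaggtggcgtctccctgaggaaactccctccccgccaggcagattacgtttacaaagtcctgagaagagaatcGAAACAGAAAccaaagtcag
PARP14: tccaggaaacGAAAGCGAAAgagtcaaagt
IFIT3: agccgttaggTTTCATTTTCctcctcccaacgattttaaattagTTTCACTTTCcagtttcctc
OAS3: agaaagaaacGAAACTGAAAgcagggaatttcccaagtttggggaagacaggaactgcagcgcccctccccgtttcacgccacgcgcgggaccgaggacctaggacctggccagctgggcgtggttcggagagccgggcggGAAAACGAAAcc
ISG15: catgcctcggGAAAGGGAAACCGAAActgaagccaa
ISG20: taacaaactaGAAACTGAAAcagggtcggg
No ISRE letters were found in the windows of CXCL11, IRF9 and SP110. The GAS letters were present in them and are in capitals in the next sequences, at chr4:76036292-76036320 (minus) for CXCL11, chr14:24161192-24161220 (plus) for IRF9, chr5:132490879-132490907 (minus) for IRF1 and chr2:230220004-230220032 (minus) for SP110.
CXCL11: ttaaatggatTTCTAGGAAaagctacctt
IRF9: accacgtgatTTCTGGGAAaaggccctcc
IRF1: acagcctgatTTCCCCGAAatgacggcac
SP110: cacttttcttTTCTCGGAAgcccggcccc

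Genes with and without ISRE letters had like medians. Among ISGs on both arrays, the 23 with ISRE letters had a median log2 fold change of -0.18, with 20 below 0. The 10 without them also had a median of -0.18, with 8 below 0. The 13 with at least 2 ISRE matches in a window, overlapping ones included, had a median of -0.23, with 12 below 0. They ranged from -0.71 in RTP4 to 0.32 in OAS3. The 12 with GAS letters had a median of -0.21 and ranged from -0.80 in CXCL11 to 0.23 in SP110.

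**Figure D1:**
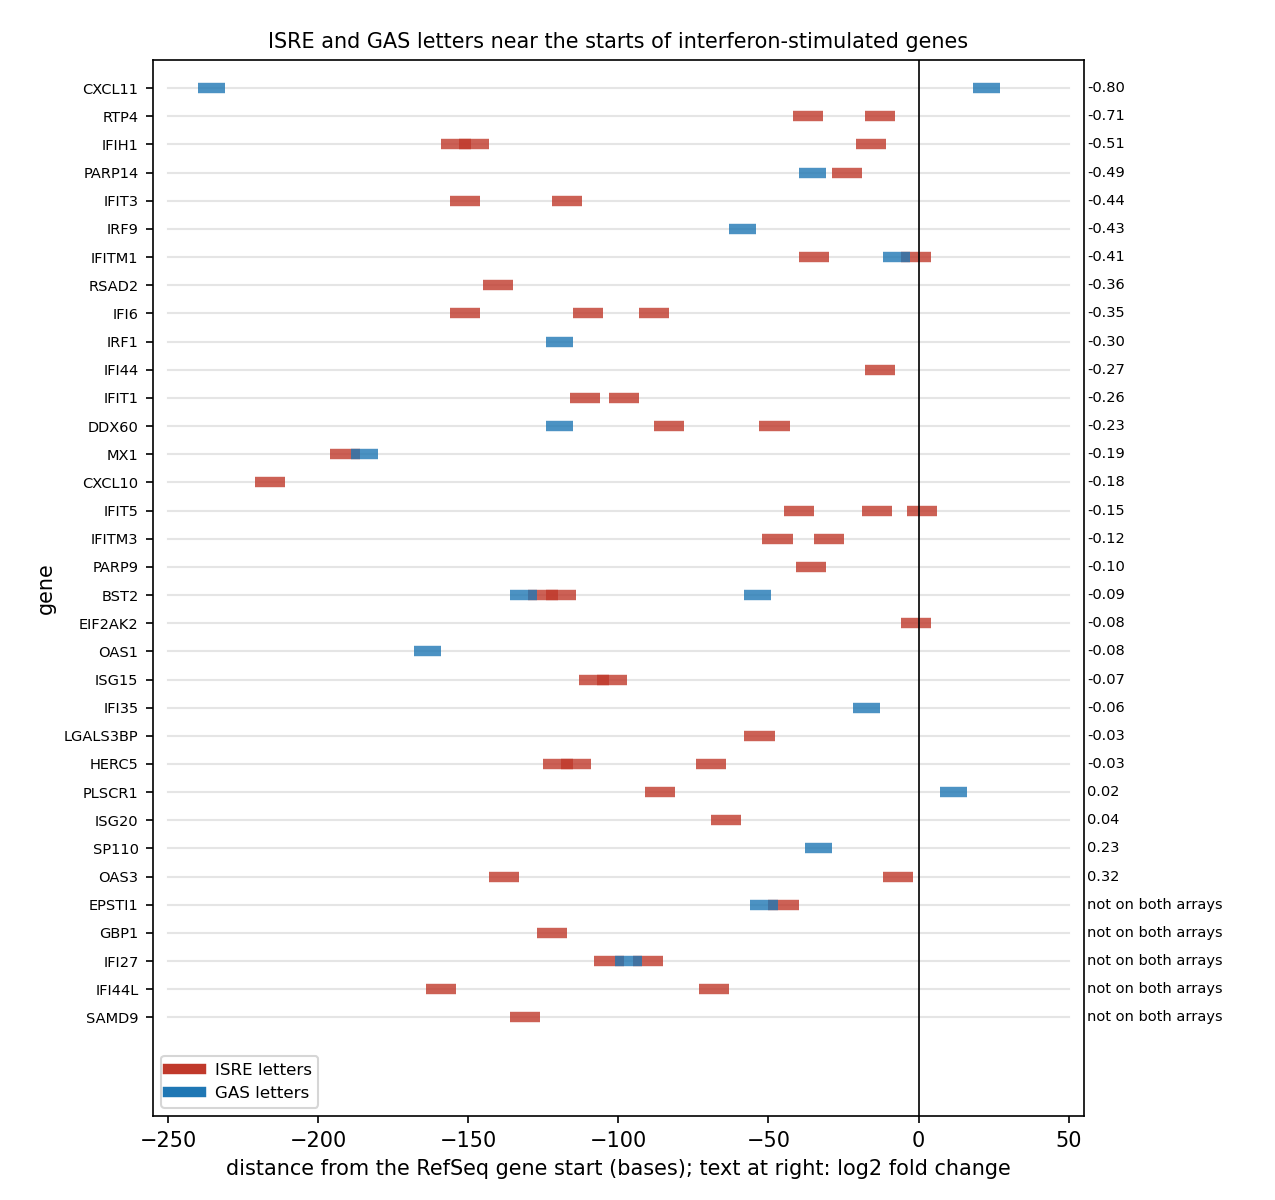
Positions of ISRE (red) and GAS (blue) letters in 1 RefSeq promoter window of each of 34 ISGs that hold either, in bases from the gene start, with the log2 fold change (THOC2 siRNA over NC) at the right. Of 47 ISRE matches, overlapping ones included, 40 began within 150 bases before the start or after it. Genes with several matches stood at both ends of the list.

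As a group, the ISGs were slightly lower after THOC2 siRNA. The log2 fold change was computed after each array was centred on its 75th percentile, and a gene's value is the mean over its compared probes. The median over the 44 measured ISGs was -0.18, and 36 of them (81.8%) were below 0, where 46.6% of all 17514 genes compared were below 0 with a median of 0.02. On the 42 ISGs measured on both arrays the median was -0.16 and 34 (81.0%) were below 0, against 43.2% of 15647 genes with a median of 0.04. In RNA from a whole culture, fewer cells that express a gene and less RNA per cell cannot be told apart.

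The shift was small for most single genes. On both arrays 2 of 42 ISGs were lower by 1.5-fold, CXCL11 and RTP4, against 2.61% of genes, and 0 were higher, against 3.53%. None of the 42 passed 2-fold in either direction. With genes that passed the detection mark on 1 array only, 4 of 44 measured ratios were lower by 1.5-fold, where 7.19% of all genes were, and 0 were higher, where 6.03% of all genes were. A share of 4 in 44 is near that background. The ratios added were those of IFI27 and HERC6, which were compared only through the NC array, where they were high, so neither was shown to be 1.5-fold lower. For the same reason the 1 ratio of 44 lower by 2-fold, that of IFI27 (3.34% of all genes), is not a call on that gene, and 0 were higher by 2-fold, against 2.96%.

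The direction was shared more widely than the size. Among the 23 ISGs with a mean log2 signal over 8, where repeated spots differed by a technical SD of 0.05, the median was -0.22 and 19 were below 0. In the same signal range 37.1% of 7153 genes were below 0, with a median of 0.06. The 19 ISGs of lower signal had a median of -0.09, with 15 below 0, where all genes of that range had a median of 0.01 with 48.4% below 0, so the difference from all genes was smaller there. Of the 42 ISGs on both arrays, 20 (47.6%) were lower by more than 2 technical SD, against 20.7% of all genes, and 4 (OAS3, MX2, GBP2 and SP110) were higher by more than 2 technical SD, against 31.8% of all genes. The other 18 lay within 2 technical SD. MX2 counted as higher through its dimmer probe, and its brighter probe lay within 2 technical SD. Members are not independent samples, and these counts describe the pair of arrays and not the conditions. Across the 42 genes the change had little relation to the signal level (Spearman's rho 0.15, Pearson's r 0.16 across genes that share both arrays).

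**Figure D2:**
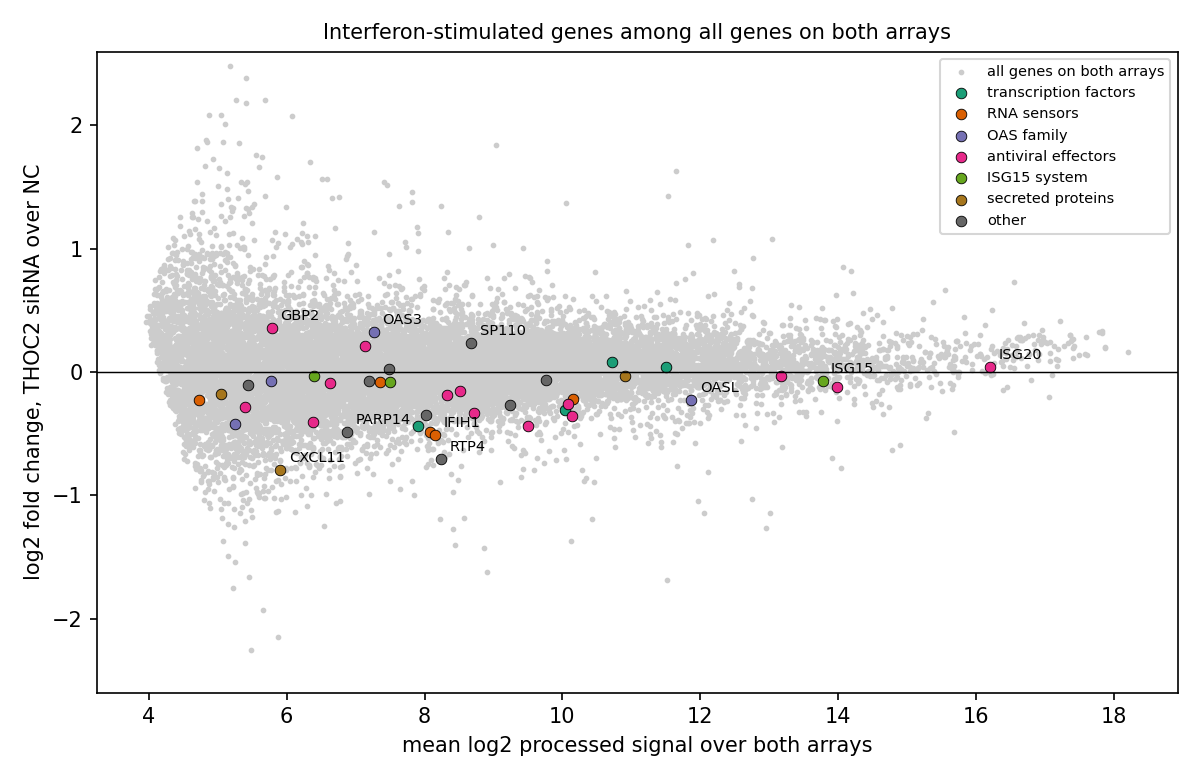
Log2 fold change (THOC2 siRNA over NC, after centring) against the mean log2 processed signal over both arrays, for all 15647 genes measured on both arrays (grey) and the 42 ISGs among them (coloured by role). Of the ISGs, 34 lie below 0, and the 2 beyond 1.5-fold are CXCL11 and RTP4.

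In the following, signals are the processed intensities in arbitrary units, NC first and THOC2 siRNA second. The THOC2 siRNA array was dimmer throughout: before centring, the median log2 difference of probes on both arrays was -0.27. Lower raw signals are therefore the rule, and the log2 fold changes, which are centred, carry the comparison. Signals of different probes depend on their own binding and do not rank the genes.

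**Figure D3:**
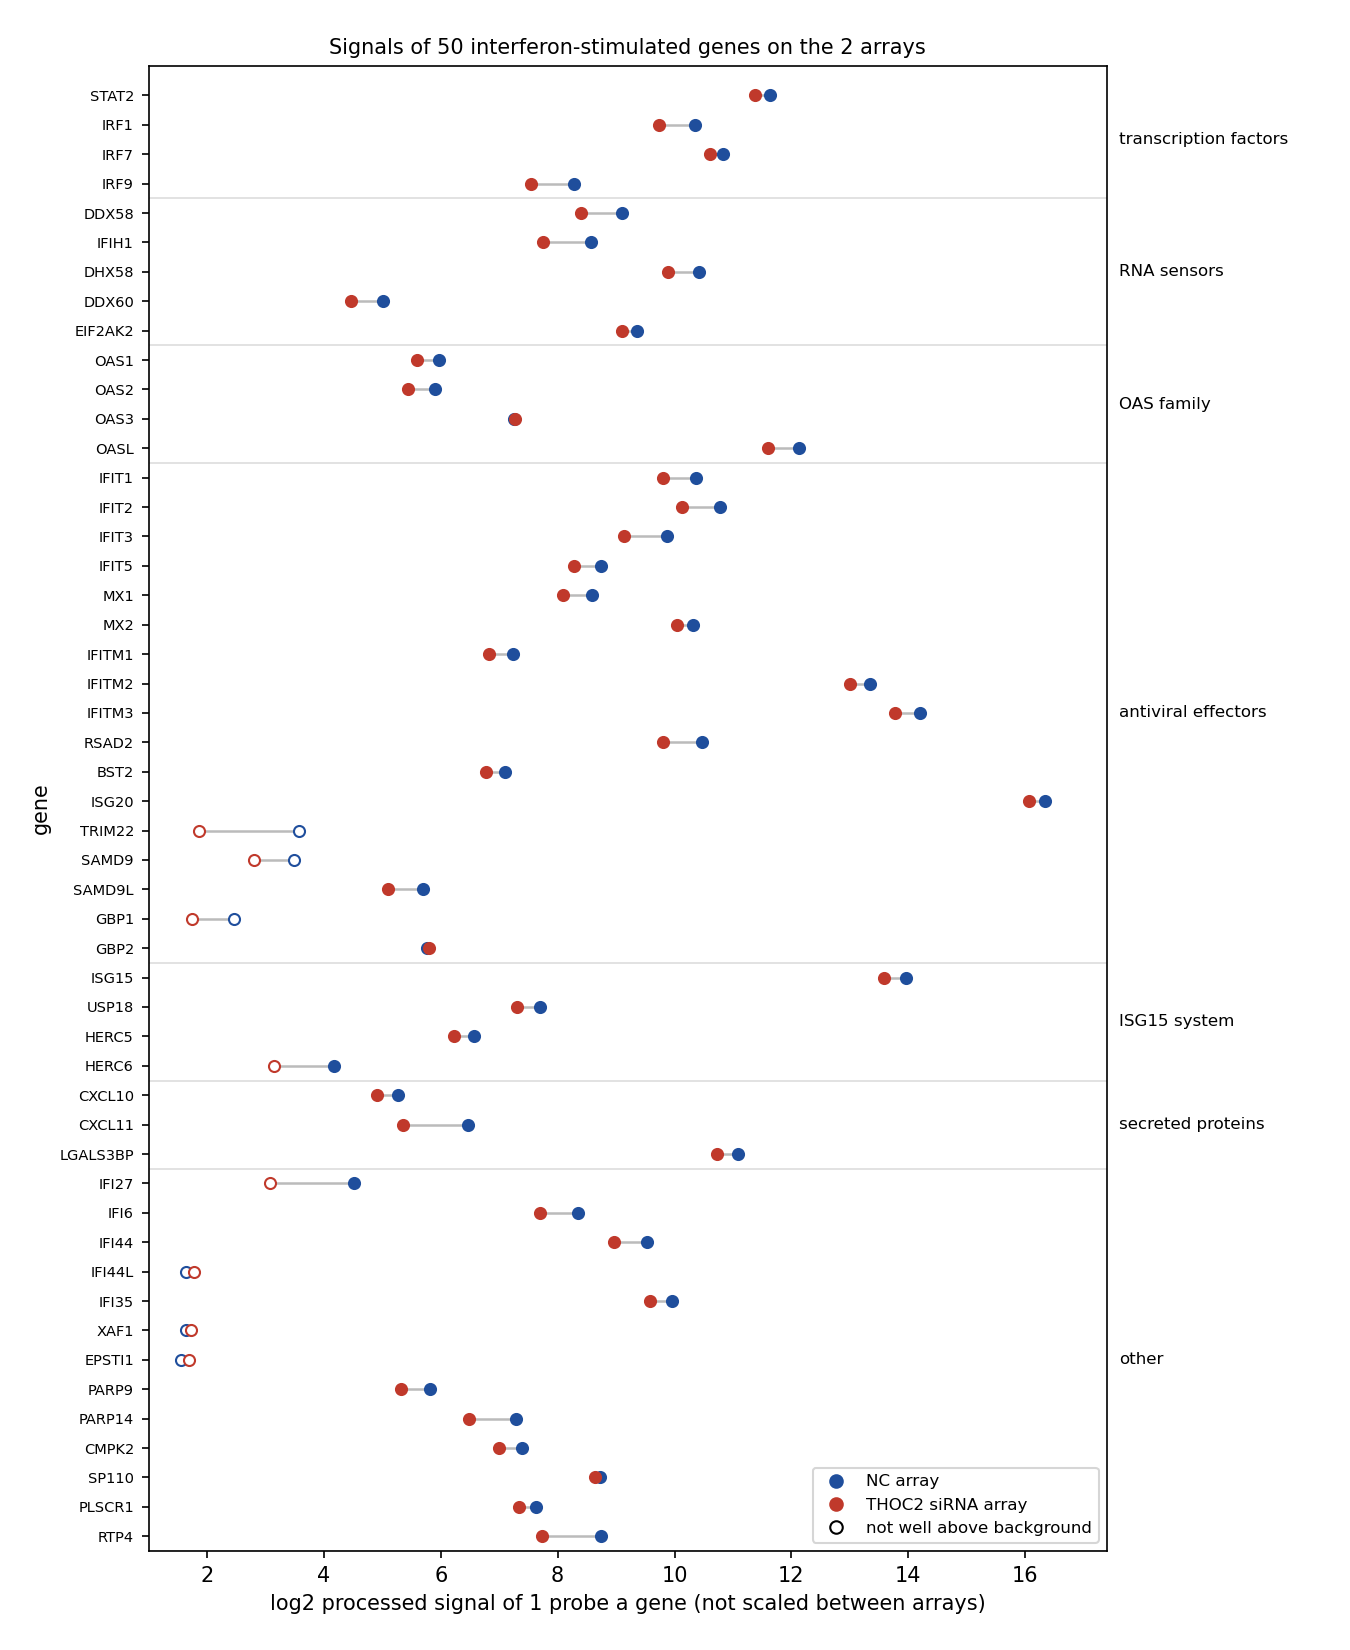
Log2 processed signals of 50 ISGs, at the brightest compared probe of each gene (or the brightest probe where none was compared), on the NC array (blue) and the THOC2 siRNA array (red), before centring. Open points were not well above background, and most pairs of points show the siRNA array to the left of the NC array, as for RTP4 (8.75 and 7.73) and in contrast to GBP2 (5.76 and 5.81).

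All 5 sensors of RNA were below 0, with a median of -0.23. IFIH1, which encodes MDA5, a sensor of long double-stranded RNA, had signals of 380 and 215, a log2 fold change of -0.51 ± 0.05 (technical SD). DDX58, which encodes RIG-I, the sensor of RNA with 5′ triphosphate ends, had 551 and 339 at one probe and 229 and 124 at the other, with a mean of -0.49 ± 0.06. These sensors stood close together, lower by factors of 1.43 (IFIH1) and 1.40 (DDX58). DHX58, which encodes LGP2, the regulatory relative of both, had 1371 and 951 (-0.22). DDX60, a helicase linked to RIG-I signalling, had 32.1 and 22.1 (-0.23), within 2 technical SD, and turned to 0.01 with normexp background correction. EIF2AK2 encodes PKR, the kinase that halts translation on double-stranded RNA, and its probes gave 0.05 (657 and 551) and -0.22 (53.5 and 37.0). Both EIF2AK2 probes and their mean (-0.08) lay within 2 technical SD of 0. The 2 helicases that signal through MAVS, IFIH1 and DDX58, were lower at each of their probes.

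The transcription factors split. IRF9, the DNA-binding subunit of the ISGF3 complex, had signals of 311 and 186 and a log2 fold change of -0.43 ± 0.10, and its second probe was not well above background on either array. IRF1, the factor induced by interferon gamma, had 1299 and 849 (-0.30 ± 0.05). Both were lower by more than 2 technical SD. STAT2, the partner of IRF9 in ISGF3, had 3178 and 2645 (0.04), and IRF7, the factor that amplifies interferon alpha genes, had 1826 and 1560 (0.08). STAT2 and IRF7 lay within 2 technical SD of 0, and both turned below 0 with normexp background correction, STAT2 with quantile normalization too.

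The antiviral effectors had a median of -0.17 over 14 measured genes, 11 of them below 0. IFIT1 binds viral RNA that lacks host cap methylation, and the IFIT genes lie side by side on chromosome 10. In hg19 their probes lay from chr10:91066613-91066672 (IFIT2) to chr10:91179559-91179618 (IFIT5), on the plus strand. IFIT3 had 942 and 560 (-0.44), IFIT2 had 1752 and 1119 at one probe and 159 and 102 at the other (mean -0.33), IFIT1 had 1318 and 889 (-0.26) and IFIT5 had 430 and 312 (-0.15). All 4 IFIT genes were lower by more than 2 technical SD, and both IFIT2 probes gave nearly the same ratio (-0.34 and -0.33). RSAD2, which encodes viperin, an enzyme that makes a chain-terminating nucleotide, had 1420 and 894 (-0.36 ± 0.05). Its neighbour CMPK2, a nucleotide kinase on the opposite strand of chromosome 2, had 168 and 128 (-0.07).

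The IFITM proteins block virus entry at membranes. IFITM3 had 18825 and 14000 (-0.12) and IFITM2 had 10428 and 8221 (-0.03). IFITM1 had 152 and 113 at one probe (-0.11) and 75 and 37.0 at the other (-0.71), a spread of 0.60 between neighbouring probes on chromosome 11. The mean for IFITM1 of -0.41 thus rested on 1 probe. The 3 genes are close in sequence, and binding of one gene's RNA by another's probe was not tested.

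The MX dynamin-like GTPases differed. MX1 had 383 and 271 (-0.19 ± 0.05), whereas MX2, its neighbour on chromosome 21, had 1275 and 1053 at one probe (0.03) and 16.6 and 17.5 at the other (0.38), with a mean of 0.21. GBP2, a guanylate-binding protein induced by interferon gamma, had 54.2 and 55.9, and its log2 fold change of 0.35 ± 0.17 was the highest among the ISGs. ISG20, an RNA exonuclease, had 82731 and 68617 (0.04). BST2, which encodes tetherin, had probes at -0.17 and -0.01. SAMD9L had 51.8 and 34.4 at its probe on both arrays (-0.28). Its second probe, at 17.8 and 10.2, was well above background on the NC array only and took the mean to -0.38. The MX2 mean and GBP2 were above 0 by more than 2 technical SD, and ISG20 lay within. At its brighter probe MX2 also lay within 2 technical SD, so its mean rested on the dim probe, close to the detection limit.

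The OAS enzymes make a short oligoadenylate messenger when they bind double-stranded RNA. Their log2 fold changes ran in both directions. OAS2 was lower at each of 3 probes, with 60.6 and 28.4 (-0.78), 32.7 and 21.1 (-0.32) and 59.5 and 43.4 (-0.15), and a mean of -0.42. OAS1 had 62.9 and 48.1 (-0.08). OAS3 had 153 and 154 (0.32 ± 0.10), with a second probe not well above background. These 3 genes are neighbours on chromosome 12, with probes from chr12:113354461-113354520 (OAS1) to chr12:113448601-113448660 (OAS2) in hg19, and OAS3, which lies between the others, was the only one above 0. OASL, a family member without the enzyme activity, had 4507 and 3110 (-0.23).

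The ISG15 conjugation system was nearly flat after centring on the 75th percentile. ISG15, the ubiquitin-like modifier, had 15978 and 12239 (-0.07), HERC5, its main ligase, had 95.2 and 75.1 (-0.03) and USP18, the protease that removes it and restrains the interferon receptor, had 207 and 158 (-0.08). These 3 genes lay within 2 technical SD of 0. ISG15 was past 2 technical SD with quantile normalization (-0.15), the authors' values (-0.15), lowess (-0.17) and normexp (-0.14). It stayed within with median scaling (-0.08) and block centring (-0.02). HERC6 was well above background on the NC array only, at 18.1 and 8.84 at that probe, a level too close to the detection limit for a fold.

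CXCL11 had the lowest ratio of the ISGs measured on both arrays after centring, but with normexp background correction it was -0.37, and RTP4 (-0.58), IFIH1 (-0.50), IFIT3 (-0.50), DDX58 (-0.47) and IRF9 (-0.41) were lower. CXCL11 and CXCL10 encode chemokines that draw T cells through CXCR3, and their genes are neighbours on chromosome 4 (hg19 probes at chr4:76955615-76955674 and from chr4:76942934-76942993, minus strand). CXCL11 had 88.2 and 41.0, a log2 fold change of -0.80 ± 0.17, 1.74-fold lower. CXCL10 had 38.3 and 30.2 at one probe (-0.03) and 40.0 and 25.9 at the other (-0.32), within 2 technical SD. LGALS3BP, a secreted glycoprotein, had 2164 and 1705 (-0.03). The change of CXCL11 was therefore not shared by its neighbour to the same extent, although both chemokine genes were dim and rested on 1 or 2 probes of low signal.

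Among the other ISGs, RTP4, a chaperone of membrane receptors with antiviral activity, had 429 and 212, a log2 fold change of -0.71 ± 0.05, 1.64-fold lower. At 13.6 technical SD, it was the ISG farthest from 0 relative to the technical spread. PARP14, an ADP-ribosyltransferase, had 155 and 89.4 (-0.49 ± 0.10), whereas its neighbour PARP9 on chromosome 3 had probes at -0.02 and -0.18. IFI6, an antiapoptotic protein, had 328 and 208 (-0.35) and IFI44 had 741 and 497 (-0.27), both lower by more than 2 technical SD. SP110, a nuclear body protein, was higher, with 422 and 400 (0.23 ± 0.05). IFI35 (989.5 and 763, -0.06) and PLSCR1 (198 and 162, 0.02) lay within 2 technical SD. IFI35 was past it with quantile normalization (-0.12) and normexp (-0.17), and not with block centring (-0.06). IFI27, often used as a marker of interferon exposure, had 22.8 and 8.41 and was well above background on the NC array only. Its ratio was 1.16-fold lower with the siRNA signal raised to that array's detection limit, which is not a strict bound. The measured ratio for IFI27 of -1.13 is thus less certain than those of RTP4 and CXCL11.

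**Figure D4:**
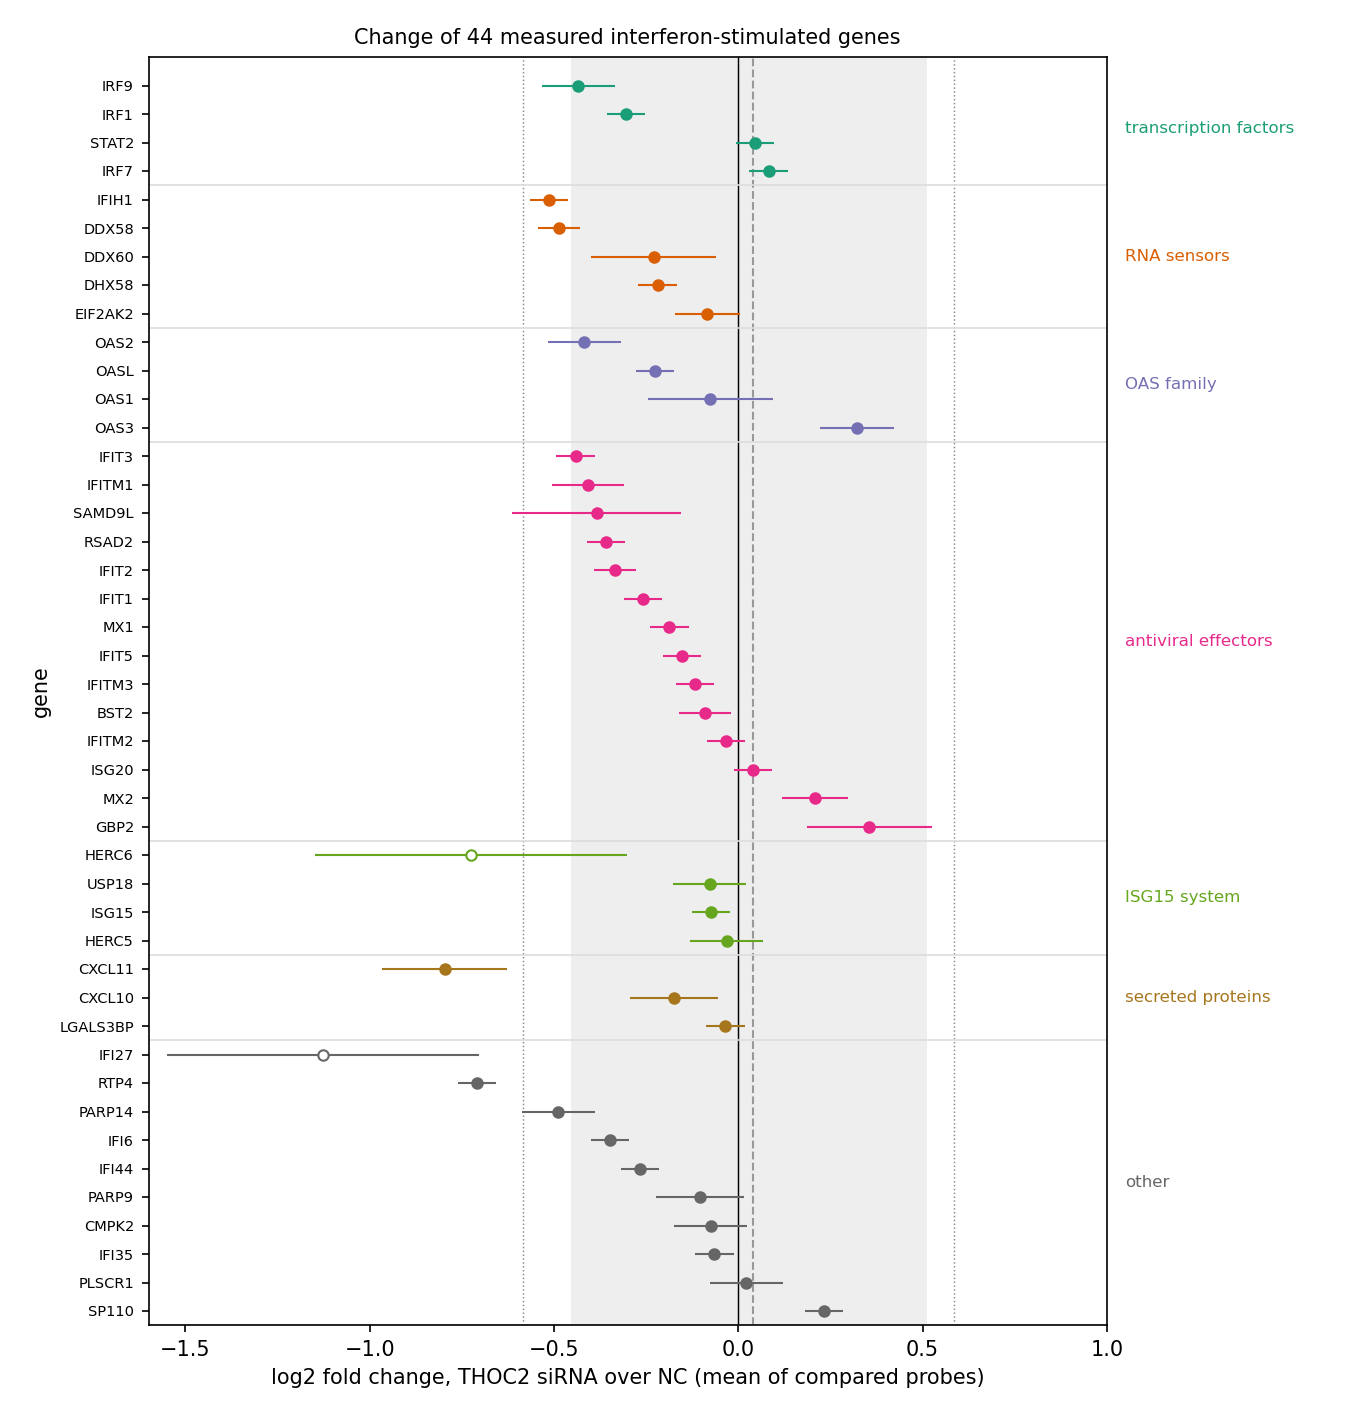
Log2 fold change (THOC2 siRNA over NC) of 44 measured ISGs by role, with bars of ± 1 technical SD from repeated spots. Open points were well above background on the NC array only, dotted lines mark 1.5-fold, and the grey band spans the 5th to 95th percentile of all genes on both arrays (-0.45 to 0.51, median 0.04 dashed). Most points lie left of 0 inside the band.

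Probes of the same gene mostly shared a direction. Of 9 ISGs with at least 2 probes on both arrays, 7 had every probe below 0, MX2 had both above 0 and EIF2AK2 had 1 on each side. Over all ISG probes on both arrays, 42 of 52 were below 0. The spread between probes of a gene ran from 0.003 (IFIT2) to 0.64 (OAS2), so a single-probe ratio such as that of CXCL11 or PARP14 could not be checked within the array.

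The upstream pathway as a whole had a median near 0. Of a list of 30 genes (ligands, receptors, kinases, adaptors and inhibitors), 25 were measured, with a median of -0.003 and 13 below 0 (52.0%, where 46.6% of all genes were). On both arrays 0 of 24 were lower by 1.5-fold, against 2.61% of all genes, and 1 was higher (IRF2), against 3.53%, a share near that background. IFNL1, a type III interferon, had 1933 and 1329 (-0.23 ± 0.05), and IFNL2 had 168 and 92.4 (-0.55 ± 0.10). IFNB1, the type I interferon of non-immune cells, had 28.4 and 13.5 and was well above background on the NC array only. Its ratio was 1.44-fold lower with the siRNA signal raised to that array's detection limit, which is not a strict bound. IFNL3, IFNE and IFNG were not well above background on either array, and no probe carried the symbol IFNA1. IFNL1 and IFNL2, the interferon genes measured on both arrays, thus had log2 fold changes below 0. IFNB1 was compared only through the NC array, where it was high, so its ratio is not a call on that gene.

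Receptor subunits ran from below 0 to slightly above it. IFNAR1, a chain of the type I receptor, had 176 and 105 (-0.43 ± 0.10). IFNAR2, the other chain, had 2 probes on both arrays at -0.05 and -0.02. Another IFNAR2 probe was well above background on the NC array only (31.3 and 15.0), and 1.59-fold lower with the siRNA signal raised in that way. For the type III receptor, IFNLR1 had 617 and 525 (0.08) and IL10RB had 319 and 241 (-0.09). For the interferon gamma receptor, IFNGR1 had 512 and 389 (-0.09) and IFNGR2 had 1321 and 956 (-0.16). IFNAR1 and IFNGR2 lay beyond 2 technical SD, and IFNGR1, IFNLR1, IL10RB and both IFNAR2 probes on both arrays lay within.

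The kinases JAK1 (89.2 and 71.8, -0.003) and JAK2 (56.3 and 43.8, -0.05) were close to 0, and TYK2 had 317 and 311 (0.28 ± 0.05). The kinases that activate IRF3, TBK1 (156 and 120, -0.07) and IKBKE (60.0 and 48.9, 0.01), lay within 2 technical SD. IRF2, a repressor at ISRE sites, had 24.2 and 31.8 (0.70 ± 0.17). IRF3, the factor that starts interferon beta transcription, was above 0 at both probes (0.34 and 0.28). Among inhibitors of the pathway, SOCS3 had 235 and 240 (0.34 ± 0.10) and SOCS1 had 121 and 101 (0.06).

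The cells carried signals of the melanocytic lineage, with SOX10 at 6196 and 5196, while of the pigment genes PMEL, TYR and TYRP1 were not well above background, DCT was low on both arrays (18.0 and 24.4) and MLANA was well above background on the siRNA array only (2.94 and 18.7). The cultures were of an established line, and markers of other cell types were read as a description. Of plasmacytoid dendritic cell markers, 1 of 3 was well above background (IL3RA, 133 and 93.7). The defining markers LILRA4 and CLEC4C were not, and the 3 probes summed to 139 and 103. Of the leukocyte markers, 3 of 4 genes were (CD14, 24.0 and 25.0; CD3E, 25.3 and 37.4; PTPRC at 1 of its probes, 27.4 and 28.9), and 8 probes summed to 92.8 and 108. In fibroblast markers, 1 of 5 genes (DCN, 62.4 and 149 at 1 of its probes) was well above background, and the 6 probes summed to 81.7 and 165. In epithelial markers 1 of 4 genes (KRT14) was, and the 5 probes summed to 105 and 141. What gave these signals, and any part of them in the ISG values, was not tested. The array split the compared ISG probes over 46 of 128 blocks of spots, whose median log2 fold changes ran from -0.07 to 0.22.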

How the data were processed

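RNA from 2 A375 cultures was hybridised to Agilent SurePrint G3 Human v3 arrays in 1 colour (Cy3). Per the file headers, the authors used Agilent Feature Extraction 10.7.1.1, which subtracted background and detrended each array, and the deposited processed signal is an intensity with no scaling between arrays. The authors also deposited log2 normalized values, whose sorted values differed between the arrays by at most 0.04, used here as an alternative. The other marks used per spot (well above background, saturated, outlier) are 0 or 1 values deposited with the signals. A file of the authors' own fold changes was not used. Here, outlier spots (147 and 168 of 60901 non-control spots) were dropped, spots of a probe were averaged as log2, and each array was centred on its 75th percentile (6.62 for NC and 6.31 for THOC2 siRNA). A probe was compared if either array marked it well above background (24616 on NC, 22936 on THOC2 siRNA), and a gene is the mean of them. No ISG probe had an outlier flag or more than 1 spot, and 0 spots were saturated. A difference of 1.5-fold was counted, with 2-fold beside it.

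The technical SD of a log2 difference came from probes printed on 5 or more spots: 0.42 for a mean log2 signal under 4 (15 probes), 0.17 from 4 to 6 (5 probes), 0.10 from 6 to 8 (36 probes) and 0.05 over 8 (244 probes). It covers spot error only, and the number of arrays limits the precision. For IFI27, IFNB1 and 1 IFNAR2 probe, a fold is given with the siRNA signal raised to a limit. The limit of an array was its lowest signal well above background (14.7 on NC and 15.9 on THOC2 siRNA). It is not each probe's own threshold, since IFNL3 at 17.1 on NC was not well above background. Such a fold is therefore not a strict bound.

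Every ISG is given by role. By rule, sequences are shown for the ISGs with the largest change in each direction on both arrays that had a RefSeq window (CXCL11 and OAS3), and the other sequences were chosen after their values were seen. Of the pathway list, genes past 1.5-fold, receptor subunits and kinases are named by rule, and the remaining names (the interferons, IRF3, SOCS1 and SOCS3) were chosen for their roles after their values were seen. Members and lists were chosen with earlier results of these data known. Analyses used Python 3.11.15 (numpy 2.4.6, pandas 2.3.3, scipy 1.17.1, statsmodels 0.14.6, matplotlib 3.10.9) and R 4.3.3 with limma 3.58.1 (normexp only). Scripts were tested on simulated data. Alternatives were quantile normalization, median scaling, lowess centring, normexp with an offset of 50, detection on both arrays, all probes kept, dim probes raised to the limit, the brightest probe, block centring and 2-fold. Probe positions are hg19 as the files give them, and their place in exons or UTRs was not analysed here. RefSeq windows use GRCh38.p14.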

Additional observations from a re-analysis of the deposited data

How the results depend on the processing

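With 1 array per condition, no alternative could use replicates. No paired analysis was possible because each group had 1 sample. The median of the ISGs stayed below 0 in 10 of 10 alternatives (from -0.21 with quantile normalization or the authors' values to -0.13 with normexp). The median of all genes was 0.24 without a detection filter, where probe values were unchanged but genes not well above background entered (34757 genes). Of 44 measured ISGs, 32 were below 0 and 4 (MX2, OAS3, SP110, GBP2) above 0 in every value from the 9 alternatives that keep a detection filter and alter the values. The other 8 changed sign or reached 0 in at least 1 (STAT2, IRF7, ISG20, PLSCR1, EIF2AK2, HERC5, HERC6 and DDX60). In those alternatives 43.2% (both arrays) to 51.9% (quantile normalization) of all genes were below 0. The share of all genes below 0 in every alternative was not computed. The 32 include IFI27, compared only through the NC array. The number lower by 1.5-fold was 4, where 7.19% of all genes were lower. It became 0 with normexp (0.87% of all genes) and 2 on both arrays (2.61%). It was 2 with dim signals at their limit (3.53% of all genes) and 1 at 2-fold (3.34%). The transcription factor median, -0.13, was -0.19 with quantile normalization, the authors' values (-0.19) or lowess (-0.19), -0.18 with normexp and -0.22 with block centring. It turned to 0.064 without a detection filter, where the IRF9 probe not well above background enters at 1.09. The RNA sensor median was -0.33 with normexp. THOC2 was -0.51 with normexp and -1.42 with its brightest probe. Normexp also shrank dim genes, CXCL11 to -0.37, OAS2 to -0.09 and IFITM1 to -0.17. The causes were not tested. Of the other values, 99 moved by less than the technical SD or, for counts, by less than 1.5 times. Dim probes limit the 6 unmeasured ISGs, IFI27 and HERC6.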
